A study of Mus musculus with 8 samples.

Results

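The noncoding RNAs Rmrp, Malat1, Snhg3 and Snhg6 were followed on both strands of the genome, and Neat1 on the one strand that the table counts, in ID8-OR cells, mouse ovarian cancer cells of the ID8 line that resist olaparib. They were represented by 10 of the 54146 rows of the deposited count table: the rows of these RNAs themselves, of which Rmrp has 2, and the rows of Ccdc107, Gm17300 and Mcmdc2 and an unnamed row within Malat1, whose exons lie over them on the other strand. The rows were chosen by name and position and not by their values. Cells were kept for 72 hours with olaparib and EZM8266 together (the combination), with EZM8266, with olaparib, or with DMSO, the solvent, and each of these 4 groups had 2 libraries. Olaparib inhibits PARP enzymes, which act at DNA breaks, and EZM8266 is an inhibitor of the histone methyltransferases EHMT1 and EHMT2. All 8 libraries, the DMSO controls included, came from the resistant line grown in medium with serum; the doses, and whether the line is a single clone, are not given in the sources used here. The treatment label of combination replicate 2 names EZM8267, and that library was kept with the group of its title. The labels do not say that replicates were separate cultures, so p-values describe the spread between libraries, which may be technical. The labels number the EZM8266 and combination libraries 33 to 36 and the olaparib and DMSO libraries 41 to 44, so any effect of this numbering cannot be told apart from EZM8266.

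Rmrp is the RNA of RNase MRP, a ribonucleoprotein enzyme that cuts precursor ribosomal RNA. Malat1 is a long RNA retained in the nucleus, where it gathers at nuclear speckles, and Neat1 is the RNA scaffold of paraspeckles. Snhg3 and Snhg6 are host genes, from whose transcripts small nucleolar RNAs are released, and the Snhg3 products Snora73a and Snora73b, known as U17, take part in cutting precursor ribosomal RNA. The labels state that ribosomal RNA was removed from total RNA and also name an mRNA library kit, and whether poly(A) tails were selected is not given in the sources used here.

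The strand on which a row counts bears on every value below. Per the file headers, the counter was run with strand setting 1, which keeps a fragment when its first read has the orientation of the row. The library kit is known to mark strand with dUTP, which places the first read opposite to the transcript. A row lying over a gene on the other strand therefore receives fragments that such a kit gives for that gene, whereas the row of the gene itself receives the fragments of the opposite orientation.

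The stretches that both strands share are 124 to 705 bases long. The sequences below show Rmrp, stretches of Malat1, and Snora73a and Snora73b, but not the whole stretch shared at Snhg3. All come from the GENCODE M21 transcripts of the mouse assembly GRCm38 (mm10), are written 5′ to 3′ in the direction of the noncoding RNA, and lie on the minus strand. The whole of Rmrp (chr4:43492788-43493058, 1 exon) is printed first. The capitals mark positions 36 to 159, counted from the 5′ end, which an exon of Ccdc107 covers on the plus strand. They make up 124 of 271 bases, 45.8% of Rmrp, but 8.02% of the 1547 exonic bases of the Ccdc107 row.
Rmrp: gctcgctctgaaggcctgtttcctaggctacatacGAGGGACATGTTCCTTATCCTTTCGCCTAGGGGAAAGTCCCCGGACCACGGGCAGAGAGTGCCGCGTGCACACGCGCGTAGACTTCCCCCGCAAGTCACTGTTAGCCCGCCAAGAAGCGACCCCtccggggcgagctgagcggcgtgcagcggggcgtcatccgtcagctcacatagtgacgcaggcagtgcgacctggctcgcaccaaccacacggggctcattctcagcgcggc
The row opposite Malat1 has 2 exon blocks, both inside the single exon of Malat1 (chr19:5795690-5802672),, on the plus strand. The bases of Malat1 under these blocks are positions 4124 to 4366 (243 bases, whose last base is at 5798307 on the chromosome) and 4930 to 5111 (182 bases, whose first base is at 5797743). They are printed because the row over them held the most counts of any row at this locus.
Malat1 positions 4124 to 4366: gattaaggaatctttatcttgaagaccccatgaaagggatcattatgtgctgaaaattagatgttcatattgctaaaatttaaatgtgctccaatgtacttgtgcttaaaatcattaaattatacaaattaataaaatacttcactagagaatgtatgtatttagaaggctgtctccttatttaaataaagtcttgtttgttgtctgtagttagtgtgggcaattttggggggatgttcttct
Malat1 positions 4930 to 5111: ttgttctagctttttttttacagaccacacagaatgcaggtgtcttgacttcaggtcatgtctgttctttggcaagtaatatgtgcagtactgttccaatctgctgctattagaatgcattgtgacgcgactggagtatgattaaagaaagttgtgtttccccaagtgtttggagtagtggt
The Gm17300 row covers on the plus strand 705 of the 986 exonic bases of Snhg3 (71.5%). It also covers all 205 bases of Snora73b (chr4:132352322-132352526) and 175 of the 205 bases of Snora73a (chr4:132352775-132352979), which differ at 7 positions and are 96.6% identical.
Snora73a: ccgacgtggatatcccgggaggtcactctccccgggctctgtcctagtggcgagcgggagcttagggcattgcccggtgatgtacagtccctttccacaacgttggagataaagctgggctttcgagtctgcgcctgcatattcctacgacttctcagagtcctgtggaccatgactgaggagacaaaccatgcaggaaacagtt
Snora73b: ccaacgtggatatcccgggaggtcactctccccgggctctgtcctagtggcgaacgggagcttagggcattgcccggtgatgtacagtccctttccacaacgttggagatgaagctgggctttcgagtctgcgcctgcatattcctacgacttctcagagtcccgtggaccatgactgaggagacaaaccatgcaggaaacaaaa
The GC content was 64.2% for Rmrp, 30.9% and 40.7% for the Malat1 stretches, and 56.1% and 55.6% for Snora73a and Snora73b.

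The remaining loci are those of Snhg6 and Neat1. An exon of Mcmdc2 (chr1:9908638-9942085, plus strand) covers 127 of the 1146 exonic bases of Snhg6 (chr1:9941959-9944118, minus strand), which is 11.1% of Snhg6 and 2.15% of the Mcmdc2 row. Neat1 (chr19:5824708-5845478, minus strand, 20771 exonic bases) has no row with exons over it on the other strand, so the table gives only its own row. A 453-base predicted row, Gm37376, also lies wholly over Malat1, nearer its 5′ end, and was used for comparison. Which bases of a row the counted fragments covered is not in the table.

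**Figure D1:**
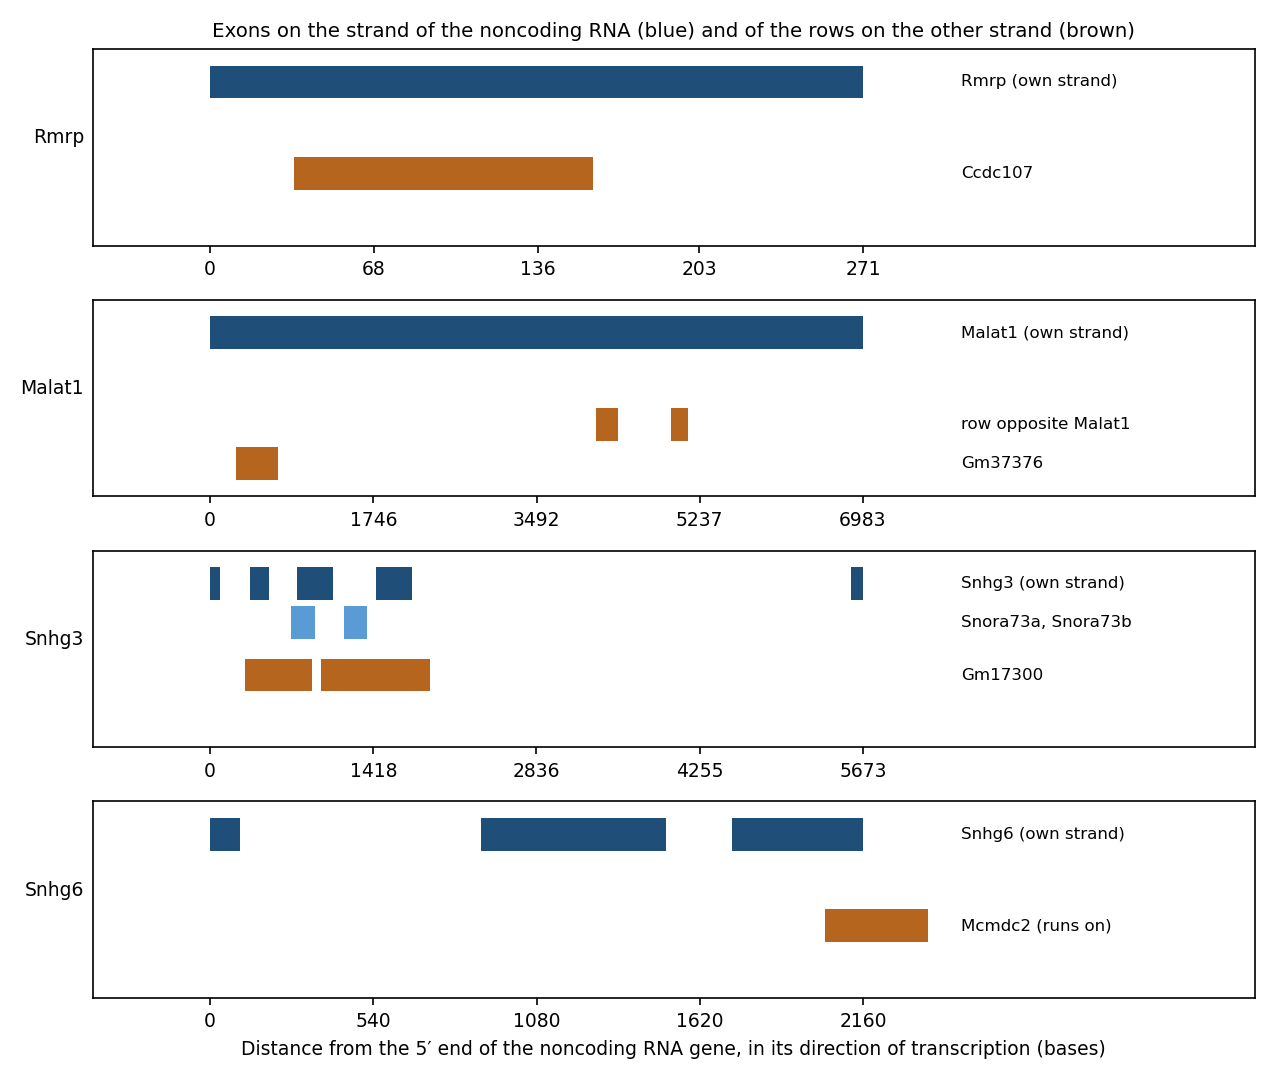
Exons of 4 noncoding RNAs (blue) and of the rows on the other strand (brown), drawn to scale against the distance in bases from the 5′ end of each noncoding RNA gene, with the small nucleolar RNAs inside Snhg3 in light blue. Ccdc107 meets Rmrp over 124 bases, the row opposite Malat1 lies wholly within Malat1, Gm17300 meets Snhg3 over 705 bases, and Mcmdc2, which runs on past the edge of its panel, meets Snhg6 over 127 bases.

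Only a small part of each library is behind these values. The libraries had 19743299 to 30329847 fragments, of which 4.54% to 5.4% were assigned to genes, and their counts summed to 973382 to 1680974. The limit that a count of 0 allows, 3 counts, was 1.78 to 3.08 counts relative to a library's total (CPM, the usual per-library scaling of counts) and covers counting error only. A few rows vary strongly outside the groups: CT010467.1 held 10.2% to 19.1% of the counts and AY036118 2.3% to 9.58%, and Gm10800 held 23746 counts in DMSO replicate 1 and 22517 in olaparib replicate 2, against 1182 to 4277 in the other libraries. The epithelial and mesothelial markers were thin on their own rows. Although 9 of 9 had a count in some library, Lrrn4, Cdh1 and Krt7 reached 1 count at most and Upk3b 7, whereas Wt1 had 13 to 58 and Krt19 14 to 53, and the sum was 51.4 to 106 CPM. The 2 rows over such markers on the other strand summed to 186 to 268 CPM, nearly all of it in Gm36026 with 196 to 362 counts. Of 5 leukocyte markers, Cd3e, Lyz2 and Adgre1 were at 0 in all libraries and the sum was 0.618 to 9.94 CPM; the sum over 3 endothelial markers was 0.618 to 4.64 CPM and that over 5 fibroblast markers 47.3 to 157 CPM, mostly Col1a1 with 42 to 235 counts. These last 3 sums are also of own rows, which with this kit and strand setting receive the orientation opposite to the transcript. A low sum is therefore not a measure of the marker RNA. On the other strand the leukocyte markers had 1 row, at 0 in all libraries, and the fibroblast markers 2 rows with at most 1 count. The endothelial markers had no such row. In bulk samples such as these, fewer cells of a type and less RNA per cell also cannot be told apart.

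At the Rmrp locus nearly all counts lay in the row of Ccdc107, a gene for a coiled-coil protein. The Ccdc107 row held 129810 and 89482 counts with the combination, 158294 and 85234 with EZM8266, 162754 and 101373 with olaparib, and 124714 and 194016 with DMSO. These were 8.39% to 12.2% of all counts, and the row was first or second of the table in every library. The Rmrp row itself held 1895 and 1098 counts with the combination, 2488 and 899 with EZM8266, 2537 and 1460 with olaparib, and 1570 and 3314 with DMSO. The Ccdc107 row thus had 58.5 to 94.8 times the counts of the Rmrp row. A second Rmrp row, 281 bases long, differed from the 271-base row in 1 library only, with 1897 counts against 1895 in combination replicate 1, and was not counted as a separate measurement. How many of the fragments of the Ccdc107 row reached the 124 shared bases is not in the table.

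Malat1 showed the same order of strands. The Malat1 row held 59 and 80 counts with the combination, 132 and 46 with EZM8266, 110 and 94 with olaparib, and 47 and 176 with DMSO. The row opposite Malat1, although it spans 6.09% of the bases, held 6702 and 8890 counts with the combination, 10146 and 7932 with EZM8266, 9754 and 9349 with olaparib, and 6513 and 11585 with DMSO. It ranked ninth to twelfth of the table, and its counts were 65.8 to 172 times those of the Malat1 row. Gm37376, the other row over Malat1, held 2486 to 4903 counts.

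The host genes differed more from each other. The Snhg3 row held 2 to 16 counts and the Gm17300 row 3552 to 10584, a ratio of 587 to 2103. The rows of Snora73a and Snora73b on the strand of Snhg3 were as thin as the Snhg3 row, with 1 to 18 and 5 to 18 counts; the Snhg3 row shares 159 bases with the Snora73a row and 135 with Rcc1, so 1 fragment can count for several of them. The Snhg6 row held 2 to 5 counts, at or near the limit of a count of 0, and the Mcmdc2 row, of a gene with a known role in meiotic recombination in mice, held 153 to 261. Snord87, a small nucleolar RNA in an intron of Snhg6, held 0 to 2. The Neat1 row held 14 and 8 counts with the combination, 31 and 9 with EZM8266, 22 and 10 with olaparib, and 17 and 29 with DMSO. Its low counts therefore concern one strand, and the other was not measured.

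Per kilobase of row exon, the levels spanned a wide range. The Ccdc107 row was at 53287 to 84517 TMM-scaled CPM per kilobase, the row opposite Malat1 at 15008 to 20387, and the Rmrp row at 3299.6 to 7551. Gm17300, at 2314 to 4280.2, overlapped the range of Rmrp. Then came Mcmdc2 at 25.0 to 30.6, Malat1 at 6.55 to 15.6, Snhg3 at a mean of 6.28 (lowest 1.98), Snhg6 at 1.28 to 3.42 and Neat1 at 0.375 to 1.13. Among these neighbours the ranges of Malat1 and Snhg3, and of Snhg3 and Snhg6, overlapped over the 8 libraries, whereas those of Mcmdc2 and Malat1, and of Snhg6 and Neat1, did not. These are levels over whole rows, and a row whose fragments lie only in the overlap would be higher over that stretch.

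**Figure D2:**
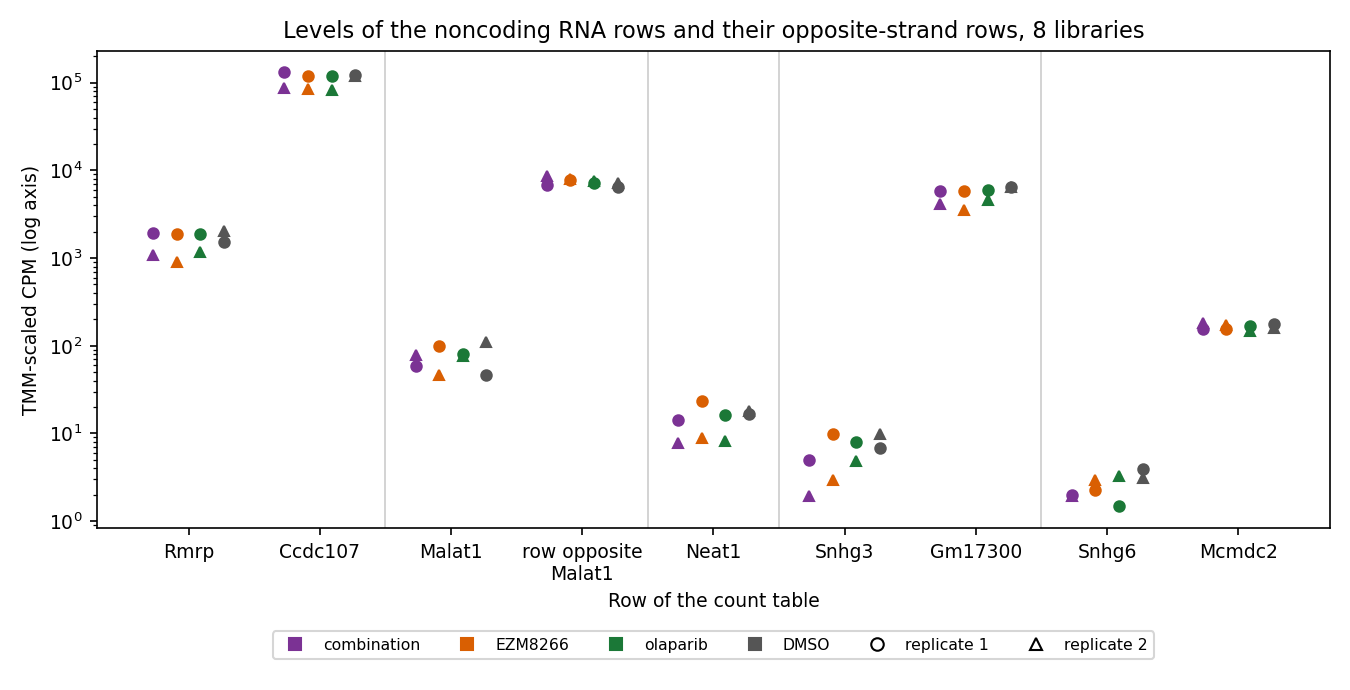
TMM-scaled CPM (log axis) of 9 rows in every library, in 4 colours for the groups, with replicate 1 as a circle and replicate 2 as a triangle; vertical lines separate the loci. Each opposite-strand row (Ccdc107, the row opposite Malat1, Gm17300, Mcmdc2) lies above the row of the noncoding RNA it overlaps in every library, and replicate 2 of each treated group lies below replicate 1 for Rmrp, Ccdc107, Neat1, Snhg3 and Gm17300.

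The first question was whether any of these rows changed with treatment. None of the 8 distinct rows that passed the filter on low counts was called in any of the 4 comparisons by edgeR's quasi-likelihood test at a Benjamini-Hochberg adjusted p under 0.05, and Snhg6 did not pass the filter. Over all 6379 tested rows, the share called was 0% for olaparib against DMSO, 0.204% (13 rows) for EZM8266 against DMSO, 0.219% (14 rows) for the combination against DMSO, and 0.658% (42 rows) for the average effect of EZM8266, the 4 libraries with it against the 4 without it. At an unadjusted p under 0.05 the 4 comparisons had 117, 365, 312 and 432 rows, and DESeq2 called 0, 15, 16 and 37. Of the 32 values of these rows, 1 had an unadjusted p under 0.05. A count of 0 of 8 is near these backgrounds and says nothing particular about these RNAs.

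Gm17300, the row over Snhg3 and its snoRNAs, came closest. It was at 5845 and 4099 TMM-scaled CPM with the combination, 5774 and 3533 with EZM8266, 5905 and 4533 with olaparib, and 6387 and 6536 with DMSO. All 6 treated libraries were below both DMSO libraries, but replicate 2 of each treated group was far lower than replicate 1. The log2 fold change was -0.47 ± 0.21 (SE) for EZM8266 against DMSO, with an unadjusted p of 0.0456 and an adjusted p of 0.854 by edgeR (95% interval -0.94 to -0.01). It was -0.38 ± 0.21 for the combination and -0.31 ± 0.21 for olaparib, each against DMSO. All 3 share the DMSO libraries. For the average effect of EZM8266, Gm17300 had -0.27 ± 0.15 (adjusted p 0.848, edgeR). With no filter on low counts the EZM8266 value, -0.44, was called (adjusted p 0.0214, edgeR), as it also was, with the average effect, when the DMSO replicate numbers were crossed in a replicate block, a pairing the labels do not give. Further, without EZM8266 replicate 2 it was -0.16 (adjusted p 0.998, edgeR) and without EZM8266 replicate 1 it was -0.89 (adjusted p 0.0753, edgeR).

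The row opposite Malat1 lay the other way. It was at 6750.4 and 8665 TMM-scaled CPM with the combination, 7676 and 7889.6 with EZM8266, 7176 and 7602 with olaparib, and 6379 and 7154 with DMSO. The olaparib and EZM8266 libraries were above both DMSO libraries, and combination replicate 1 lay between them. The log2 fold changes were 0.19 ± 0.13 for the combination, 0.20 ± 0.13 for EZM8266 and 0.13 ± 0.13 for olaparib, against DMSO, with adjusted p of 0.973, 0.884 and 0.999 by edgeR. The average effect of EZM8266 was 0.13 ± 0.09, with a 95% interval of -0.07 to 0.33, which holds no change larger than 0.33 on the log2 scale. Gm37376 had an average effect of 0.12 ± 0.09.

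Ccdc107, and with it Rmrp, varied more within the treated groups than between group means. The Ccdc107 row averaged 108980.5 ± 30783 CPM with the combination, 102271 ± 24737 with EZM8266, 101085 ± 26376 with olaparib and 120974 ± 1649 with DMSO (SD, n = 2 each). Its log2 fold changes against DMSO were -0.15 ± 0.21, -0.24 ± 0.21 and -0.26 ± 0.21 for the combination, EZM8266 and olaparib, and the average effect of EZM8266 was -0.07 ± 0.15, with a 95% interval of -0.39 to 0.26. Without TMM scaling this last value was 0.01, and without DMSO replicate 1 and olaparib replicate 2 the olaparib value was 0.02. The Rmrp row averaged 1489 ± 593 CPM with the combination, 1388 ± 699 with EZM8266, 1527 ± 480.3 with olaparib and 1792 ± 359.8 with DMSO, and its average effect of EZM8266 was -0.20 ± 0.23.

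The own rows of the other RNAs were too thin or too variable for narrow intervals. The Malat1 row averaged 70.8 ± 23.5 CPM in the libraries with EZM8266 and 78.0 ± 25.7 in those without it (SD, n = 4 each), and its average effect was -0.15 ± 0.26, with an interval of -0.71 to 0.41. Neat1 averaged 13.6 ± 7.13 and 14.7 ± 4.45 CPM in the same order, with an average effect of -0.11 ± 0.37. The largest fitted change of any of these rows was that of Snhg3 with the combination against DMSO, -1.27 ± 0.74 (adjusted p 0.973, edgeR), which rests on 5 and 2 counts with the combination against 7 and 16 with DMSO. Mcmdc2 was the steadiest, at 148 to 181 CPM in all libraries, and its average effect was 0.02 ± 0.10. The Snhg6 row averaged 2.30 ± 0.474 and 2.93 ± 1.04 CPM with and without EZM8266, which is within the range of the limit of a count of 0.

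**Figure D3:**
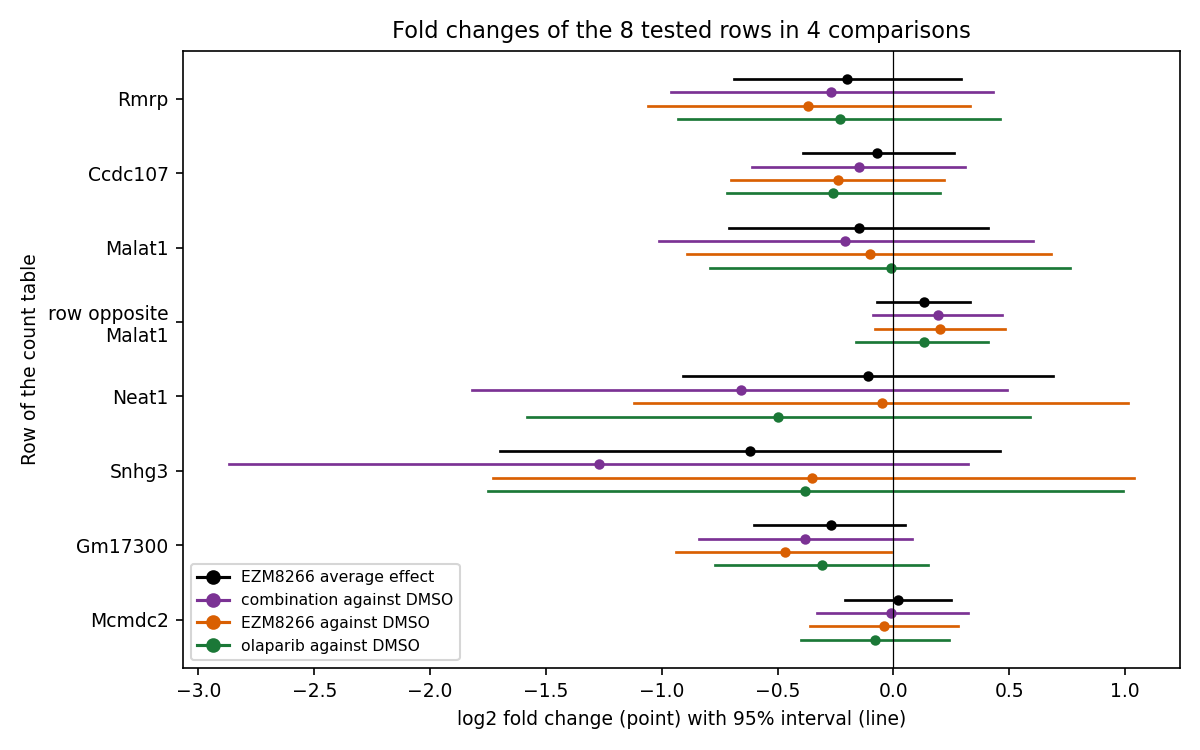
Log2 fold changes (points) with 95% intervals (lines) of the 8 tested rows in 4 comparisons from the edgeR fit; the average effect sets the 4 libraries with EZM8266 against the 4 without it. The intervals include 0 except for Gm17300 with EZM8266 against DMSO, which runs from -0.94 to -0.01, and those of Neat1 and Snhg3 are the widest.

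Groups of 2 libraries often do not overlap, as the table as a whole shows. The 2 sides did not overlap for 4 of the 8 rows in olaparib against DMSO, where 30.8% of all tested rows did not. The 4 were Ccdc107, Neat1 and Gm17300, lower with olaparib, and the row opposite Malat1, higher with it. For EZM8266 against DMSO it was 3 of 8 (Ccdc107 and Gm17300 lower, the row opposite Malat1 higher), beside 31.9% of all rows, and for the combination against DMSO 3 of 8 (Neat1, Snhg3 and Gm17300, all lower), beside 36%. With 4 libraries on each side, 0 of 8 rows were without overlap, beside 5.35% of all rows. The interaction of the compounds, on the log2 scale, ran from -0.54 for Snhg3 to 0.40 for Gm17300, with adjusted p of 1 for all 8 rows by edgeR.

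The libraries also differed in the share of fragments assigned to genes, a technical measure, and several of these rows were lowest in the libraries where it was lowest. The share was 4.64% in combination replicate 2, 4.54% in EZM8266 replicate 2 and 4.72% in olaparib replicate 2, against 4.89% to 5.4% in the other 5 libraries. In that order the Ccdc107 row was at 87213, 84779 and 82434 CPM, against 119736 to 130748 CPM in the other 5 libraries. The Ccdc107 row is itself 8.39% to 12.2% of the counts, so the measures are not fully independent. Rmrp was at 1070.2, 894 and 1187 CPM in these 3 libraries and at 1538 to 2046 in the other 5. Gm17300 was at 4099, 3533 and 4533 CPM, against 5774 to 6536, and Neat1 at 7.80, 8.95 and 8.13 CPM, against 14.1 to 23.5. All 4 rows were thus lowest in the 3 libraries with the lowest assigned share, which are also replicate 2 of each treated group. Within those 3 the Ccdc107 row did not follow the share: it was lowest in olaparib replicate 2, which had the highest share of them. The part of the assigned share in the levels was not tested.

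Rows of other small RNAs made by RNA polymerase III, as Rmrp is, were also low there. Rpph1, the RNA of RNase P, an enzyme that shares protein subunits with RNase MRP, was at 267, 215 and 294 CPM in these 3 libraries and at 403 to 539.7 in the other 5. Rn7sk, the 7SK RNA that restrains transcription elongation, was at 699.8, 573 and 588 CPM, against 757 to 1093. Such low levels were not particular to these RNAs. The row of Actb, a protein-coding gene, was at 307, 199.9 and 285 CPM, against 320.2 to 463. The thinner Gapdh row, with 15 to 40 counts, did not share this, at 20.5, 14.9 and 23.6 CPM against 16.9 to 24.7. The row opposite Malat1 did not either: it was at 8665, 7889.6 and 7602 CPM in these libraries and at 6379 to 7676 in the other 5.

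The likeness of rows across the 8 libraries, as Pearson's r of log2 TMM-scaled CPM, is given as a description, since all rows share the libraries and their scaling. With Ccdc107, r was 0.914 for Rmrp, 0.906 for Gm17300, 0.902 for Rn7sk, 0.880 for Rpph1 and 0.878 for Neat1, and it was -0.743 for the row opposite Malat1, 0.165 for Malat1 and -0.113 for Mcmdc2. The non-member rows most like Ccdc107 were Trim14 (0.970, 97 to 424 counts), Harbi1 (0.967) and Luzp1 (0.962), the last 2 with 20 counts or fewer. The row opposite Malat1 was like Gm37376 (0.928), the separate row over the same RNA. Its closest rows were Olfr544 (0.964), Gm16618 (0.958) and Gm37755 (0.952), none above 39 counts. The row opposite Malat1 and the Malat1 row had an r of 0.292. They share 425 bases on different strands, which are only 6.09% of the Malat1 row.

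**Figure D4:**
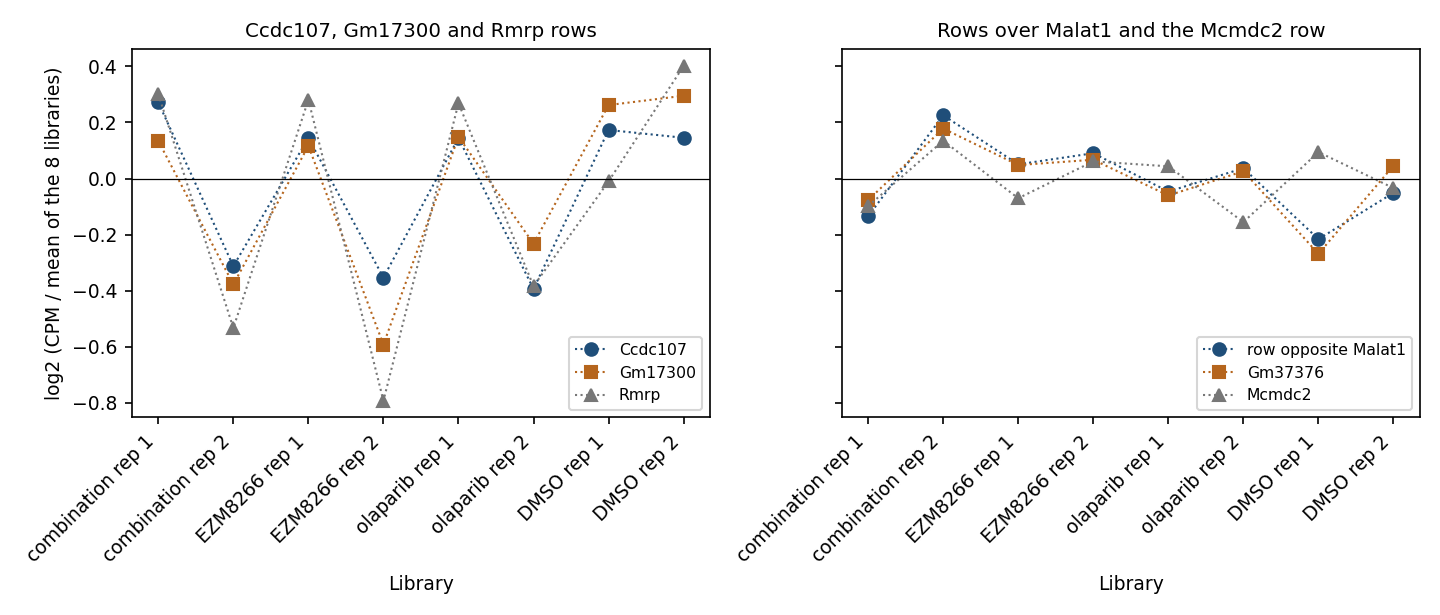
Level of 6 rows in each library as log2 of CPM over the mean of the 8 libraries. Ccdc107, Gm17300 and Rmrp (left) are lowest in replicate 2 of the combination, EZM8266 and olaparib, whereas the row opposite Malat1 and Gm37376 (right) follow each other, with a high in combination replicate 2 and a low in DMSO replicate 1, and Mcmdc2 stays within a narrow band.

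The second question was how the rows on the 2 strands compare within a library, which does not depend on scaling. The shares use whole rows, not only the bases that both strands share. Those bases are 8.02% of the Ccdc107 row, 6.09% of the Malat1 row, 46.2% of the Gm17300 row and 2.15% of the Mcmdc2 row. A share is thus mostly a ratio of different stretches, except in part at Snhg3. The Rmrp row was 1.44% and 1.21% of the Rmrp and Ccdc107 rows together with the combination, 1.55% and 1.04% with EZM8266, 1.53% and 1.42% with olaparib, and 1.24% and 1.68% with DMSO. The Malat1 row was 0.873% and 0.892% of its pair with the combination, 1.28% and 0.577% with EZM8266, 1.12% and 0.995% with olaparib, and 0.716% and 1.5% with DMSO. Both shares were lowest in EZM8266 replicate 2, highest in DMSO replicate 2, and the groups overlapped. The Wilson 95% intervals of these extremes, 0.978% to 1.11% against 1.62% to 1.74% for Rmrp and 0.433% to 0.768% against 1.29% to 1.73% for Malat1, did not overlap. The share ran from 0.0475% to 0.17% for Snhg3 and from 0.858% to 2.17% for Snhg6, and there all intervals overlapped.

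No difference between libraries with and without EZM8266 passed the test. The mean share of the Rmrp row was 1.31% ± 0.226 with EZM8266 and 1.47% ± 0.184 without it (SD, n = 4 each), a difference of -0.159 percentage points. For Malat1 the means were 0.906% ± 0.29 and 1.08% ± 0.324, for Snhg3 0.097% ± 0.0518 and 0.126% ± 0.0219, and for Snhg6 1.37% ± 0.268 and 1.77% ± 0.619, with and without EZM8266. All 4 means were lower with EZM8266, and the two-sided exact permutation p were 0.343, 0.457, 0.343 and 0.286 in the order Rmrp, Malat1, Snhg3 and Snhg6, each 0.457 after Benjamini-Hochberg adjustment over the 4 pairs. The smallest p this design allows is 0.0286, and with 2 libraries against 2 it is 0.333, so single treatments were not tested.

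Libraries with a high share at Rmrp also had a high share at Malat1. Over the 8 libraries, Pearson's r was 0.93 (exact permutation p 0.00131, adjusted over 3 relations 0.00394) and Spearman's rho 0.88 (exact permutation p 0.00724, adjusted 0.0109). Without EZM8266 replicate 2 and DMSO replicate 2, the libraries farthest from the median Rmrp share, r was 0.82. The share of Snhg3 gave r = 0.76 (exact permutation p 0.029, adjusted 0.0435), rho = 0.88 (exact permutation p 0.00724, adjusted 0.0109) and r = 0.79 without those libraries; its exact p was 0.0252 to 0.0738 with 1 library left out, the highest without DMSO replicate 2. The share of Snhg6, which rests on 2 to 5 counts, gave r = -0.11 (exact permutation p 0.794, adjusted 0.794), rho = -0.10 (exact permutation p 0.84, adjusted 0.84) and r = -0.29 without those libraries. Each block of sample numbers holds 4 libraries, under the 6 that the smallest correlation here rests on, and no value was computed within them. DMSO replicate 2 was also the deepest library, with 1680974 counts, and EZM8266 replicate 2 the shallowest, with 973382, close to combination replicate 2 with 973396. The shares also went with depth over the other libraries. In DMSO replicate 2, both olaparib libraries and EZM8266 replicate 1, with 1207736 counts or more, the Malat1 share was 0.995% to 1.5%. It was 0.577% to 0.892% in the rest, with 1103915 counts or fewer. For Snhg3 it was 0.108% to 0.17% against 0.0475% to 0.107%. For Rmrp the ranges overlapped, at 1.42% to 1.68% against 1.04% to 1.44%. The part of depth in the shares was not tested.

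**Figure D5:**
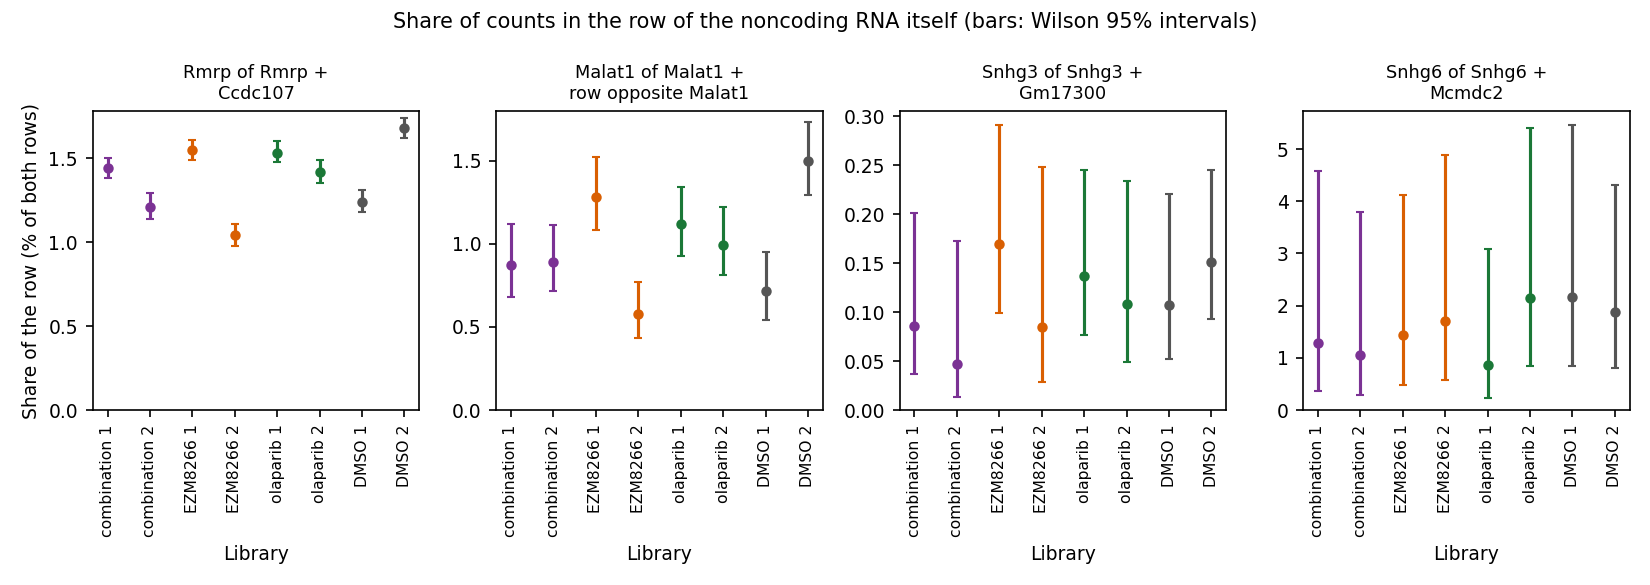
Share of the row of the noncoding RNA itself, as a percent of it and its opposite-strand row together, in each library, with Wilson 95% intervals (bars, counting error only); colours are the groups. The Rmrp and Malat1 shares move together, with EZM8266 replicate 2 lowest and DMSO replicate 2 highest, and the intervals of Snhg3 and Snhg6 are wide.

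Genes that work with these RNAs gave no calls either. They were read on their own rows and on rows sharing at least 50 bases of exon with them on the other strand. In either reading 0 rows were called in any of the 4 comparisons by edgeR. Over the 6 lists, 68 distinct rows were tested, and 1, 1, 2 and 2 had an unadjusted p under 0.05 for olaparib, EZM8266, the combination and the average effect. Of all 6379 tested rows, 0%, 0.204%, 0.219% and 0.658% were called in that order. At an unadjusted p under 0.05 there were 117, 365, 312 and 432 of all rows. A count of 0 of 68 is near these shares and says nothing particular about the listed genes. The lists include the Snhg3, Gm17300 and Mcmdc2 rows already described. The 1 row for EZM8266 is Gm17300 itself (unadjusted p 0.0456, edgeR), so it is not separate evidence. Of 24 snoRNA host genes, 10 were tested on their own rows, Snhg3 among them. The median log2 fold change was -0.26 for the combination, -0.31 for EZM8266 and -0.13 for olaparib against DMSO, beside -0.02, -0.02 and -0.01 for all tested rows. With the combination 10 of 10 estimates were below 0, among them Ncl, which encodes nucleolin, at -0.13 ± 0.31 and Eef2, the translation elongation factor, at -0.36 ± 0.32. Snhg14 had the most counts of the hosts on its own row, 901 to 1420, and an average effect of EZM8266 of -0.01 ± 0.12. On the opposite strand 4 rows were tested, Gm17300, Mcmdc2, Znfx1 and Ube3a, with medians of -0.19, -0.22 and -0.02. Gm17300 and Mcmdc2 are rows already described above, so these medians partly restate their values.

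Of 15 small structural RNAs, 10 were tested on their own rows, with medians of -0.62 for the combination, -0.57 for EZM8266 and -0.58 for olaparib against DMSO. All tested rows had medians of -0.02, -0.02 and -0.01. The average effect of EZM8266 had a median of -0.33, beside -0.02 for all tested rows. Below 0 were 8, 9, 9 and 8 of the 10. The comparisons against DMSO share its libraries, so these counts are not independent. The list also holds the Snora73a row, which shares 159 bases with the Snhg3 row. Rpph1 had -0.56 ± 0.30, -0.50 ± 0.30 and -0.46 ± 0.30, and the Y RNA Rny3, which binds Ro protein, had -0.69 ± 0.29, -0.60 ± 0.28 and -0.59 ± 0.28, for the combination, EZM8266 and olaparib. In the same order Rpph1 was at 403, 477 and 424 CPM in replicate 1 but at 267, 215 and 294 in replicate 2. Rny3 held 64, 90 and 92 counts in replicate 1 and 43, 44 and 56 in replicate 2. The part of these low libraries in the medians was not tested. Rn7sk was nearer to 0, with an average effect of -0.03 ± 0.19. On the opposite strand, the row over Rnu11, a small nuclear RNA of the minor spliceosome (Gm28872 row, 109 to 511 counts), had -0.31 ± 0.24 as its average effect.

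Protein partners were thinly counted. Of 11 proteins of RNase MRP and RNase P, only Pop5 was tested on its own row, with 7 to 23 counts and an average effect of -0.73 ± 0.33 (adjusted p 0.72, edgeR); the row over Rpp40 (Gm48746) had -0.11 ± 0.18. Of 14 paraspeckle proteins, 12 were tested on their own rows, with a median average effect of -0.26, and Sfpq, an essential paraspeckle protein, had -0.02 ± 0.20. The 7 opposite-strand rows had a median of 0.07. Of 12 nuclear speckle proteins, 9 were tested on their own rows, with a median average effect of -0.01, and Son, a speckle scaffold protein, had 0.12 ± 0.13. The 4 opposite-strand rows had a median of 0.04; the best counted was the row over the splicing factor gene Srsf2 (Mettl23 row, 1771 to 2946 counts), at 0.01 ± 0.08.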

How the data were processed

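RNA was measured in 8 libraries of ID8-OR cells. Per the labels' protocols, ribosomal RNA was removed from total RNA, the library kit was KAPA mRNA HyperPrep, and pairs of 150-base reads were taken. The tools named in the submitters' processing notes are HISAT2 2.1.0, Subread 1.6.2, MultiQC 1.7 and FastQC 0.11.8, with the build mm10. The deposited values are whole-number counts of fragments; per the file headers, featureCounts took read pairs over GENCODE exons with strand setting 1 and let 1 fragment count for every row it overlapped. The deposited assignment summary, also counts, gave the fragments per library. GENCODE M21 named 54079 of the 54146 rows; the row opposite Malat1 was among the 67 it did not name.

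Rows with a count of at least 10 in enough libraries and at least 15 in total (edgeR's filterByExpr) were tested with edgeR 4.0.16 in R 4.3.3 by its quasi-likelihood test, with TMM scaling, 4 group means and all 8 libraries in 1 fit; p-values were adjusted over all 6379 tested rows by Benjamini-Hochberg. Errors of log2 fold changes are SE of that fit. CPM are TMM-scaled unless given as shares. Likeness used a prior count of 2. Strand shares have Wilson 95% intervals and were compared by exact permutation tests (Python with SciPy); such intervals cover counting error only. Alternatives were DESeq2 1.42.0, other scalings and filters, a replicate block, fits of the compared groups only, and leaving out libraries.

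The members, the lists of related genes and the tests were chosen with earlier results of these data known. Named rows are the members, the 3 rows most like Ccdc107 and the row opposite Malat1, and up to 4 best-counted rows per list and strand. Gm37376, Actb, Gapdh and the Snora73 and Snord87 rows were singled out after their values were seen. CT010467.1, AY036118 and Gm10800 were named because of their counts.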

Additional observations from a re-analysis of the deposited data

Results flagged for a closer look

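Of 26 sets of 4 libraries examined (9 rows and 4 strand shares, each with and without EZM8266), 1 held a library far from the others. In the libraries without EZM8266, the Ccdc107 row was at 119736 and 82434 TMM-scaled CPM with olaparib and at 122139.6 and 119808 with DMSO. The gap of olaparib replicate 2 to the next library was 0.939 of the range of the set, above Dixon's 95% critical value for a set of 4. Chance flags about 1 in 20 such sets. That library had 4.72% of its fragments assigned, the lowest of the set, and its Gm10800 row held 22517 counts, beside 23746 in DMSO replicate 1; their part in the Ccdc107 level was not tested.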

How the results depend on the processing

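Across 630 recomputed fold changes of 32 (8 rows in 4 comparisons), 575 kept their direction and stayed uncalled, 52 changed sign, none of these at an adjusted p under 0.05 by edgeR or DESeq2, and 3 were newly called, all of Gm17300: for EZM8266 against DMSO with no low-count filter, and for EZM8266 against DMSO and the average effect with the crossed pairing described below.

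Sign changes other than with single libraries left out were small. For Mcmdc2 the log2 fold change for the combination against DMSO became 0.00 with DESeq2 and RLE, 0.02 with a filter of 1 CPM in 4 libraries, 0.03 with library totals without CT010467.1 and AY036118, 0.01 both with library totals and with all low-count rows kept, and 0.07 without DMSO replicate 1 and olaparib replicate 2. For EZM8266 it became 0.05 with library totals, 0.00 with either other filter and 0.03 without that pair of libraries, which gave 0.10 for olaparib and 0.00 for the average effect. Malat1 with olaparib became 0.03 with DESeq2, Neat1 with EZM8266 became 0.03 with library totals, and Ccdc107 became 0.01 (average effect, library totals) and 0.02 (olaparib, without that pair).

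With 1 library left out, the ranges that crossed 0 were as follows. For the combination against DMSO they were -0.74 to 0.10 for Rmrp, -0.46 to 0.12 for Ccdc107, -0.64 to 0.58 for Malat1 and -0.12 to 0.11 for Mcmdc2. For EZM8266 they were -1.02 to 0.07 for Rmrp, -0.82 to 0.69 for Malat1, -0.96 to 0.43 for Neat1, -1.50 to 0.20 for Snhg3 and -0.10 to 0.03 for Mcmdc2. For olaparib they were -0.60 to 0.08 for Rmrp, -0.56 to 0.00 for Ccdc107, -0.45 to 0.78 for Malat1 and -0.19 to 0.03 for Mcmdc2. For the average effect they were -0.53 to 0.02 for Rmrp, -0.23 to 0.09 for Ccdc107, -0.51 to 0.25 for Malat1, -0.57 to 0.19 for Neat1 and -0.04 to 0.08 for Mcmdc2.

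The number of called rows in the whole table moved more. In the order olaparib, EZM8266, combination and average effect it was 0, 13, 14 and 42, against 8, 42, 45 and 83 with no filter on low counts (which moved the median of the average effect to -0.16) and 1, 3, 5 and 16 without DMSO replicate 1 and olaparib replicate 2. With 1 library left out it was 0 to 1 (1 without olaparib replicate 1), 5 to 24, 6 to 19 and 18 to 66. It was 22 for the combination with library totals and 3 for EZM8266 when only the compared groups were fitted. Counts from fits with the smaller number of libraries used fewer samples; otherwise the cause was not tested.

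The replicate numbers did not pair the libraries across all 4 groups: the correlation of replicate differences was -0.31, -0.32 and -0.15 between DMSO and olaparib, EZM8266 and the combination, and 0.22 to 0.29 among those 3. A fit with the replicate block called 0, 10, 15 and 39 rows, and gave 0.01 for Malat1 with olaparib. A crossed pairing of DMSO, added after seeing the data, called 1, 84, 73 and 133 rows, with 0.02 for Malat1 with olaparib.

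The difference in the share of Snhg6 became 0.00278 points without DMSO replicate 1 and olaparib replicate 2. Settings of the correlations were added after seeing the data: without that pair of libraries r was 0.93 for Rmrp with Malat1, 0.78 for Snhg3 (exact permutation p 0.0778) and 0.04 for Snhg6, and with 1 library left out it was 0.90 to 0.96, 0.71 to 0.81 and -0.31 to 0.07. Scalings that left out CT010467.1 and AY036118 were also added after seeing the data. Depth limits Snhg6, Snhg3 and Neat1, which had at most 5, 16 and 31 counts in a library.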

Other observations

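Other long noncoding RNAs of the nucleus were thin. Of 17 such RNAs, 3 were tested on their own rows and 6 rows on the other strand, and none was called by edgeR in the 4 comparisons, by which 0.658% of all rows were called for the average effect of EZM8266. Lncpint, a long noncoding RNA known to act with Polycomb repressors, held 18 and 26 counts with the combination, 35 and 25 with EZM8266, 22 and 15 with olaparib, and 13 and 30 with DMSO, and its average effect of EZM8266 was 0.65 ± 0.26 (adjusted p 0.614, edgeR). Tug1 had an average effect of -0.33 ± 0.19. Kcnq1ot1, the imprinted antisense RNA of Kcnq1, had 5 to 15 counts and an average effect of -0.59 ± 0.39. The opposite-strand rows named by the rule all lie over Kcnq1ot1 and held 4 to 40 counts. The median average effect was -0.33 for the own rows and -0.15 for the opposite-strand rows, beside -0.02 for all tested rows.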
